A study of Homo sapiens with 12 samples.

Results

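Iron uptake, storage and sensing were followed through 10 genes in RNA-seq libraries of HEK293T cells and of R1, a methionine-independent clone derived from them. The genes were chosen by name for their function, with earlier results of these data known, and all 10 are present among the 23500 genes listed. TFRC, SLC11A2 and STEAP3 serve uptake. FTH1, FTL and NCOA4 serve storage and its release, SLC40A1 serves export, and IREB2, ACO1 and FBXL5 serve sensing. HEK293T is a human line derived from embryonic kidney cells transformed with adenovirus DNA, and it carries the SV40 large T antigen. R1 is 1 clone, and what holds for it need not hold for others. The labels enter HEK293T under cell line for the R1 libraries too, and the titles set R1 apart. Each line was kept for 12 h either in medium with methionine (+Met) or in medium in which homocysteine, its precursor, took the place of methionine (−Met+Hcy). Each of the 4 groups has 3 libraries. All 4 groups had dialyzed serum and vitamin B12 in the medium.

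Cells take up iron mostly as transferrin bound to the transferrin receptor, which is internalised. The iron is reduced in the endosome and moved to the cytosol by a divalent metal transporter, and what is not used is kept in the hollow shell of ferritin or exported by ferroportin. Many of these messages carry a stem-loop called the iron-responsive element. When iron is scarce, iron regulatory proteins bind it, which blocks translation where the element lies in the 5′ UTR and protects the message from decay where several lie in the 3′ UTR. RNA-seq measures the second kind of control in the level of the message, whereas control of translation does not need to show in it.

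The elements are shown because they divide the members into these classes. The canonical transcripts of GENCODE (GRCh38) were searched on the transcript strand alone for a C, 5 bases, the loop CAGTGN and bases that pair with those 5, where G-U pairs were allowed. Each sequence is the 27 bases around one match, 5′ to 3′, with the 6 loop bases in capitals. In the 5′ UTR, 1 match each was found in FTH1 (chr11:61967575-61967601, minus strand), FTL (chr19:48965336-48965362, plus strand) and SLC40A1 (chr2:189580662-189580688, minus strand).
FTH1: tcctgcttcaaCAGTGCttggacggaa
FTL: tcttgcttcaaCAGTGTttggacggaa
SLC40A1: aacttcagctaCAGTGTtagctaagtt

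In the 3′ UTR, TFRC held 4 matches, all on the minus strand, at chr3:196050980-196051006, chr3:196050576-196050602, chr3:196050511-196050537 and chr3:196050464-196050490, in the order of the transcript.
TFRC element 1: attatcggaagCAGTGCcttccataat
TFRC element 2: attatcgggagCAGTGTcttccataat
TFRC element 3: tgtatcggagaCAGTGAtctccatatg
TFRC element 4: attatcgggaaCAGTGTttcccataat

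The 3′ UTR of SLC11A2 held a match with 4 of 5 pairs (chr12:50988270-50988296, minus strand), shown because the element of this gene is known to differ from the standard stem.
SLC11A2: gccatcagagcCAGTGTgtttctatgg

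Among all genes, 0.102% of 19647 5′ UTRs and 0.623% of 19571 3′ UTRs held a match with 5 of 5 pairs. In the 3′ UTRs, 4 genes, TFRC included, held more than 1. The looser search with at least 4 of 5 pairs matched 0.54% of 5′ UTRs and 4.3% of 3′ UTRs, and it also matched the 3′ UTRs of ACO1 and IREB2. With Watson-Crick pairs only, SLC40A1 and 3 of the 4 TFRC elements still matched, FTH1 and FTL did not, and 0.0356% of 5′ UTRs and 0.194% of 3′ UTRs held a match. The search required the loop CAGTGN, so an element with another loop is not counted, in TFRC or elsewhere. A match describes letters and pairs, and binding was not measured.

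**Figure D1:**
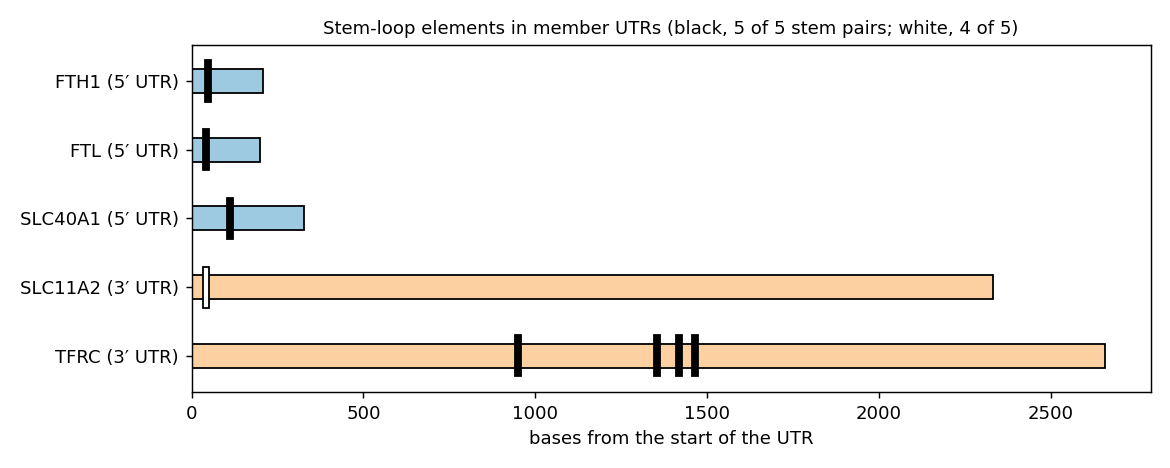
Each bar is the UTR of one canonical transcript, drawn to scale in bases from its start, with the 5′ UTRs of FTH1, FTL and SLC40A1 in blue and the 3′ UTRs of SLC11A2 and TFRC in orange. Black marks are matches with 5 of 5 stem pairs and the white mark is the match with 4 of 5, and the leading C of the 4 TFRC matches lies from 941 to 1457 bases into a 3′ UTR of 2658 bases.

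Library totals ranged from 12664158 to 18771349 estimated counts. Levels are given as CPM, a gene's count divided by its library's total and brought to a common scale, and fold changes come from edgeR with TMM scaling, which sets libraries against each other by the bulk of their genes. The choice matters here: TMM factors were 0.828 to 0.882 in HEK293T +Met libraries and 0.930 to 1.118 in the other 9. Scaling by totals alone raised the median log2 change of all genes by 0.29 in the HEK293T medium comparison and by 0.35 between the lines in +Met, and lowered it by 0.32 in the difference of the medium responses. The other 2 comparisons moved by less than 0.1. Replicate 3 of R1 in −Met+Hcy stood apart from its group. On the TMM scale its log2 ratio to the mean of the other 2 libraries was −2.08 for STEAP3 and −1.13 for FTL, the members with the highest GC content (56.8% and 56.0%). It was 0.81 for NCOA4, 0.65 for FTH1 and −0.70 for SLC11A2, and between −0.026 and 0.24 for the remaining 5. Results that rest on this library are given with and without it, and the part of GC content in them was not tested further than by removing a smooth GC trend. Of the genes listed as HEK293T markers and reported here, NEFM, which encodes a neurofilament protein, was present in every library (7.61 to 72.5 CPM). PAX2 and LHX1 were at most 1.33 CPM in HEK293T libraries and reached 6.06 and 3.94 CPM in R1. The hepatocyte gene HAMP was at 0 in all 12 libraries, and the leukocyte, erythroid and hepatocyte genes PTPRC, HBB, ALAS2 and ALB did not exceed 10 counts in any. Bulk RNA does not tell a change in every cell from a change in the mix of cells.

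TFRC (ENSG00000072274, chr3:196012511-196082153), the transferrin receptor and the main entry for iron, had the largest fitted change of the 10 genes with the medium in HEK293T. In HEK293T it stood at 173, 246 and 229.9 CPM in +Met and at 117, 111 and 108 CPM in −Met+Hcy. The groups did not overlap, and replicate 1 was the lowest of the +Met libraries. The mean was 216 ± 38.5 (SD, n = 3) in +Met and 112 ± 4.33 CPM (SD, n = 3) in −Met+Hcy, and the fitted log2 change was −1.24 ± 0.171 (SE), 2.36-fold lower. In R1 it stood at 201, 228 and 204 CPM in +Met and at 173, 150.0 and 144 CPM in −Met+Hcy. These groups did not overlap either, and replicate 3 was not set apart for this gene. The fitted change was −0.40 ± 0.169 (SE), and it did not pass edgeR's quasi-likelihood test after adjustment over all genes (adjusted p = 0.622, and −0.43 without replicate 3). The list was proposed with the HEK293T medium comparison in view, so members carry no p there.

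The response of TFRC in R1 was 0.84 ± 0.239 (SE) above that in HEK293T on the log2 scale, a difference that did not pass edgeR's test (adjusted p = 0.312). It was 0.81 without replicate 3 of R1 −Met+Hcy (adjusted p = 0.0801). DESeq2 gave 0.85 with an adjusted p of 0.0227. Over all alternatives the adjusted p ran from 0.0217 to 0.729 and the value from 0.51 to 0.96. The HEK293T side of this difference is the one known when the gene was chosen. Scaled by totals, the log2 change of TFRC in HEK293T was −0.95, and relative to the median of all genes its change was −1.27 with TMM and −1.28 by totals.

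STEAP3 (ENSG00000115107, chr2:119223831-119265652), the endosomal ferrireductase that prepares iron for transport, was at 37.8, 32.0 and 37.0 CPM in HEK293T +Met and at 35.3, 31.1 and 26.3 CPM in −Met+Hcy, with overlapping groups. On the TMM scale the groups separated, and the log2 change was −0.51 ± 0.396 (SE). In R1 it was at 43.7, 33.6 and 40.4 CPM in +Met and at 30.3, 36.6 and 6.61 CPM in −Met+Hcy, the last being replicate 3 with 124 counts. The R1 change was −0.69 ± 0.397 (SE, edgeR adjusted p = 0.638) with that library and −0.27 ± 0.163 without it.

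SLC11A2 (ENSG00000110911, chr12:50979401-51028566), the divalent metal transporter DMT1, was at 34.5, 32.5 and 37.5 CPM in HEK293T +Met and at 52.7, 54.3 and 51.7 CPM in −Met+Hcy. Every −Met+Hcy library was above every +Met library on both scales, by a log2 change of 0.31 ± 0.215 (SE) with TMM and 0.60 by totals. In R1 the values were 53.5, 63.3 and 49.8 CPM in +Met and 58.0, 49.0 and 27.5 CPM in −Met+Hcy, and the groups overlapped. The R1 change was −0.30 ± 0.214 (SE, edgeR adjusted p = 0.677), or −0.10 without replicate 3.

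**Figure D2:**
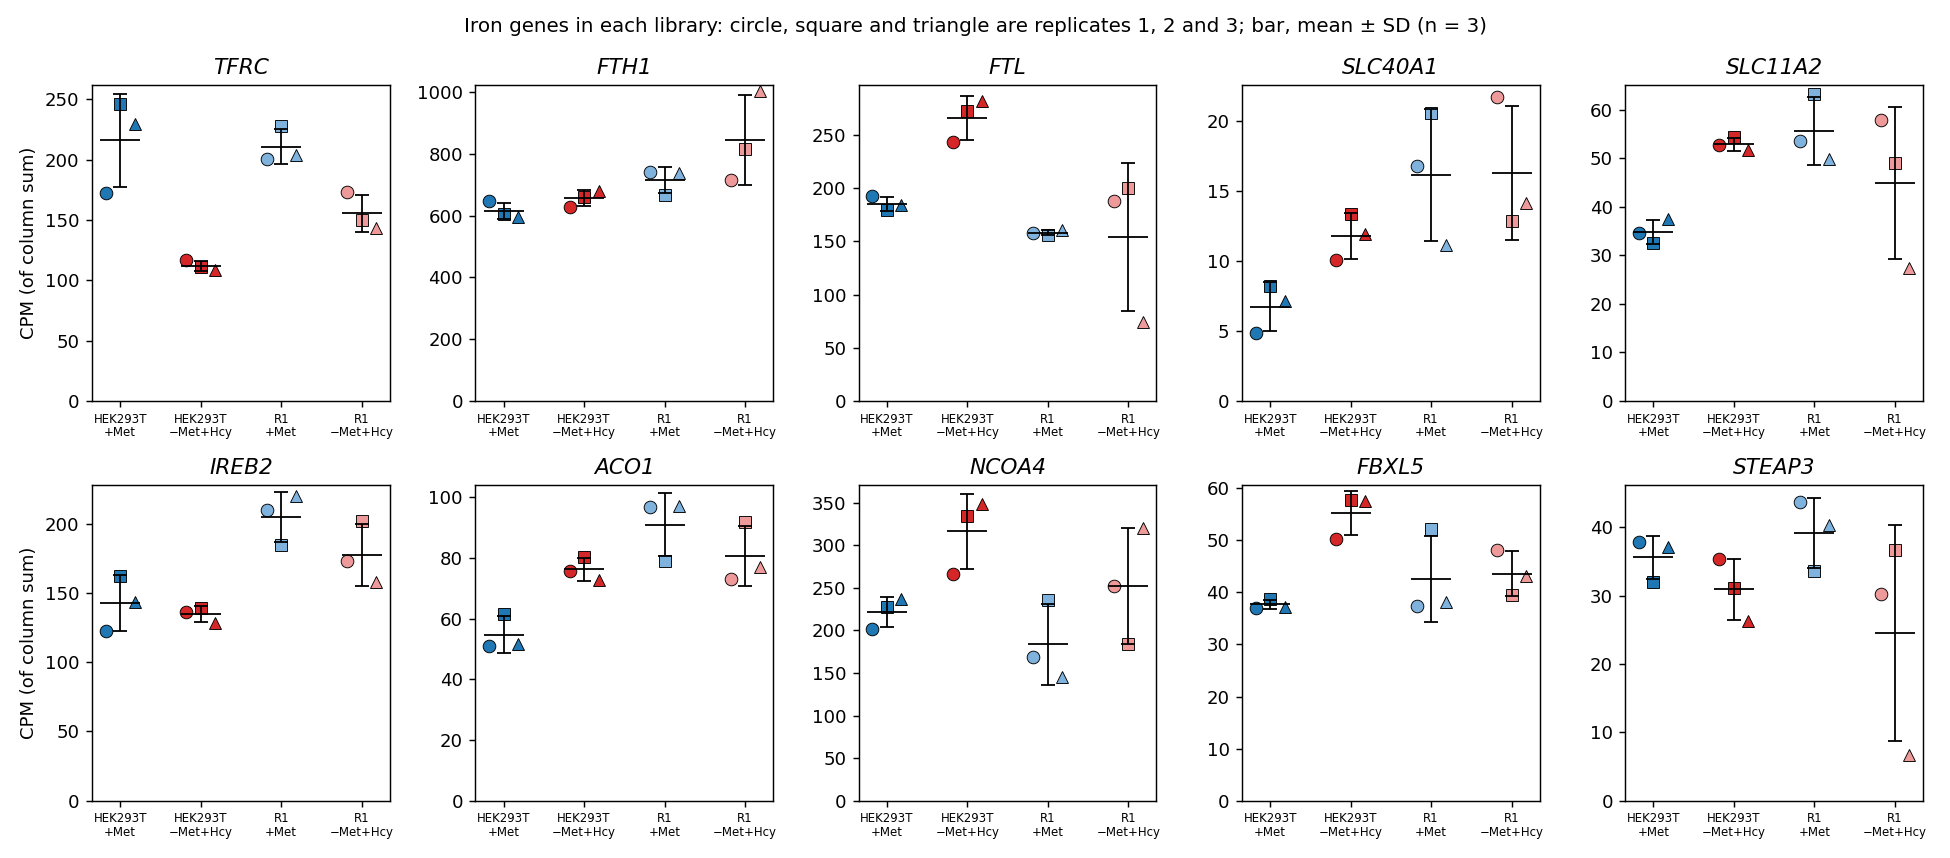
CPM of each member in each of the 12 libraries, with +Met in blue and −Met+Hcy in red, R1 in the paler shades, and bars for the mean ± SD of 3 libraries and axes from 0. TFRC is lower in −Met+Hcy than in +Met in both lines. The triangle of R1 −Met+Hcy is the lowest point of the FTL, SLC11A2 and STEAP3 panels and the highest of the FTH1 panel. For NCOA4 it is the highest of the R1 points only.

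The ferritin subunits are encoded by FTH1 and FTL, both with processed copies elsewhere in the genome, and the table lists 1 entry under each symbol, so reads shared with copies are uncertain. FTH1 (ENSG00000167996, chr11:61959718-61967634), the heavy subunit with ferroxidase activity, was the most abundant member per kilobase of canonical transcript, with group means of 512 to 702 CPM per kb. In HEK293T it was at 646, 607 and 596 CPM in +Met and at 628, 659 and 679.6 CPM in −Met+Hcy. The groups overlapped by totals and separated narrowly with TMM, with −Met+Hcy lower. The log2 change of FTH1 was −0.20 ± 0.200 (SE) with TMM and 0.089 by totals, so its direction depends on the scaling. R1 libraries held it at 741, 665 and 737 CPM in +Met and at 714, 817 and 1002 CPM in −Met+Hcy, with a log2 change of 0.31 ± 0.200 (SE, edgeR adjusted p = 0.659) and of 0.056 without replicate 3. The locus overlaps BEST1, and strand use in counting is not given in the sources used here.

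FTL (ENSG00000087086, chr19:48965309-48966879), the light subunit that aids mineral formation, was at 192, 179 and 184 CPM in HEK293T +Met and at 243, 273 and 282 CPM in −Met+Hcy. The groups did not overlap by totals and did with TMM, where the log2 change was 0.23 ± 0.256 (SE). The R1 libraries stood at 158, 155 and 161 CPM in +Met, a narrow range, and at 188, 200.2 and 73.8 CPM in −Met+Hcy. Replicates 1 and 2 lay above the +Met libraries and replicate 3 far below them. The R1 change was −0.036 ± 0.256 (SE, edgeR adjusted p = 0.967) with that library and 0.25 ± 0.140 (adjusted p = 0.790) without it, which turns its direction.

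NCOA4 (ENSG00000266412, chr10:46005088-46030623), the receptor that carries ferritin to lysosomes for iron release, was at 202, 227 and 237 CPM in HEK293T +Met and at 266, 334 and 348 CPM in −Met+Hcy. The log2 change was 0.22 ± 0.277 (SE) with TMM, where the groups overlapped, and 0.51 by totals, where they did not. Its R1 levels were 169, 236 and 146 CPM in +Met and 253, 184 and 321 CPM in −Met+Hcy, with an R1 change of 0.53 ± 0.278 (SE, edgeR adjusted p = 0.629), or 0.20 without replicate 3.

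SLC40A1 (ENSG00000138449, chr2:189560590-189583758), ferroportin, the known cellular iron exporter, was the lowest member per kilobase (2.02 to 4.88 CPM per kb). In HEK293T it was at 4.82, 8.22 and 7.16 CPM in +Met, from 77 to 120 counts, and at 10.1, 13.3 and 11.9 CPM in −Met+Hcy. The groups separated by totals and overlapped slightly with TMM, and the log2 change was 0.52 ± 0.303 (SE). In R1 the values spread from 11.1 to 20.5 CPM in +Met and from 12.8 to 21.7 CPM in −Met+Hcy, with no separation and a log2 change of 0.038 ± 0.297 (SE, edgeR adjusted p = 0.971), or 0.041 without replicate 3.

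The sensors had smaller fitted changes than TFRC in HEK293T. IREB2 (ENSG00000136381, chr15:78437431-78501453) encodes the iron regulatory protein that is degraded when iron is plentiful. It was at 122, 162 and 144 CPM in HEK293T +Met and at 136, 139.6 and 129 CPM in −Met+Hcy. The groups overlapped by totals and separated with TMM, with a log2 change of −0.37 ± 0.155 (SE) with TMM and −0.084 by totals. R1 held it at 210.4, 185 and 220.2 CPM in +Met and at 173, 202 and 158 CPM in −Met+Hcy, a log2 change of −0.17 ± 0.155 (SE, edgeR adjusted p = 0.721), also −0.17 without replicate 3.

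ACO1 (ENSG00000122729, chr9:32384603-32454769) encodes the other iron regulatory protein, an aconitase when it holds an iron-sulfur cluster. It was at 50.9, 61.6 and 51.5 CPM in HEK293T +Met and at 75.7, 80.2 and 72.8 CPM in −Met+Hcy, without overlap by totals. The log2 change was 0.19 ± 0.163 (SE) with TMM, where the groups met. Its levels in R1 were 96.8, 78.9 and 97.3 CPM in +Met and 73.0, 91.9 and 77 CPM in −Met+Hcy, a log2 change of −0.13 ± 0.163 (SE, edgeR adjusted p = 0.783), or −0.18 without replicate 3.

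FBXL5 (ENSG00000118564, chr4:15604381-15681679), the ubiquitin ligase subunit that binds iron and targets IREB2 protein, was at 37.0, 38.8 and 37.3 CPM in HEK293T +Met and at 50.3, 57.7 and 57.6 CPM in −Met+Hcy. The groups did not overlap on either scale, and the log2 change was 0.26 ± 0.195 (SE). R1 levels were 37.5, 52.2 and 38.1 CPM in +Met and 48.2, 39.5 and 43.2 CPM in −Met+Hcy, a log2 change of 0.077 ± 0.195 (SE, edgeR adjusted p = 0.890), and −0.0093 without replicate 3. Its locus overlaps FAM200B, which is counted as well.

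**Figure D3:**
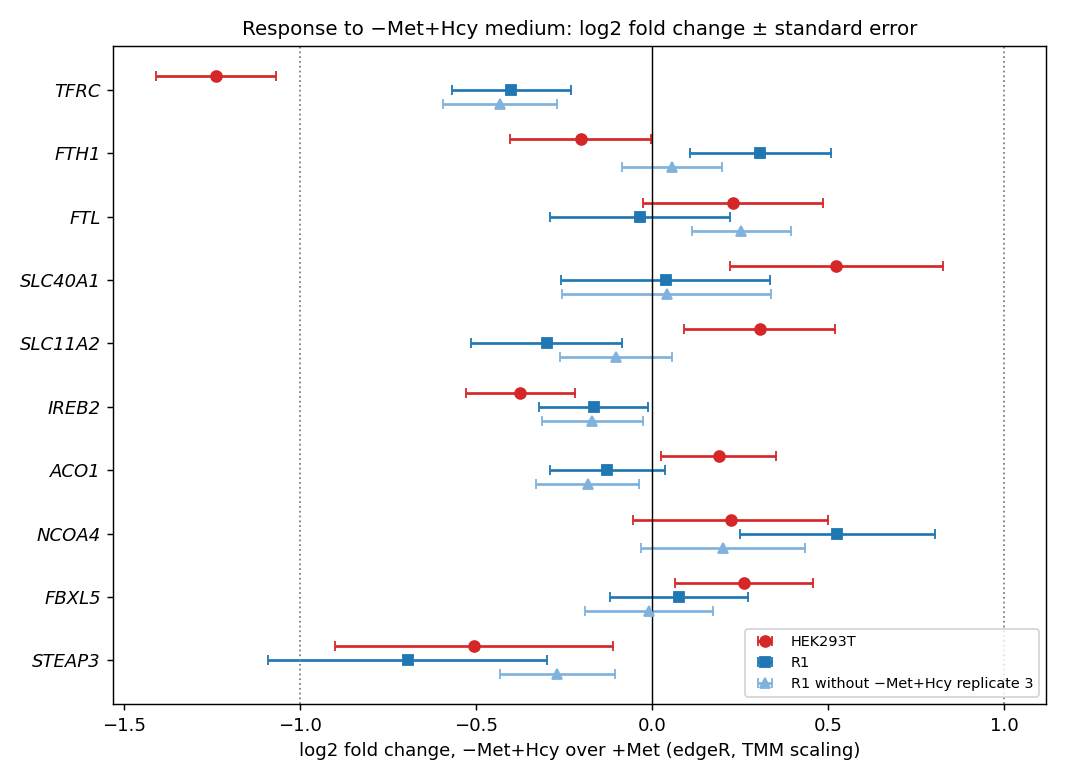
Log2 fold change of −Met+Hcy over +Met (horizontal axis, edgeR with TMM) for each member, with standard errors, in HEK293T, in R1 and in R1 without replicate 3 of −Met+Hcy. Dotted lines mark a log2 change of 1 in either direction. TFRC in HEK293T, at −1.24, is the point beyond a dotted line.

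A call here is an adjusted p under 0.05 together with a log2 change over 1 in size, the thresholds of the study's methods. All 10 members passed the filter on low counts. In the HEK293T medium comparison 1 of 10 lay past these thresholds, TFRC, beside 4.63% of the 17162 genes tested. By totals its change of −0.95 was within the fold threshold. Since the list was proposed with this comparison in view, that count is a description and no test of the members. By totals 6 members were higher and 1 lower without overlap (background 38.6% and 9.8%), and with TMM 2 were higher and 4 lower (background 24.8% and 20.6%). In the R1 medium comparison 0 of 10 were called by edgeR or by DESeq2 (background 0.00583%), 1 had an unadjusted p under 0.05, and TFRC alone did not overlap between media, on the low side (background 4.87% by totals, 5.72% with TMM). In the difference of the responses 0 of 10 were called by edgeR or by DESeq2 (background 0.0583%), and 1 had an unadjusted p under 0.05. The share of all genes with an unadjusted p under 0.05 was not taken, so counts on that threshold are a description here and below. The median log2 change of the members was 0.21 in HEK293T and −0.081 in R1, beside 0.034 and −0.015 over all genes tested.

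Ratios of 2 genes within a library do not depend on how libraries are scaled. The ratio of TFRC to FTH1 counts was 0.267, 0.405 and 0.386 in HEK293T +Met and 0.186, 0.169 and 0.159 in −Met+Hcy, without overlap. Its mean was 0.353 ± 0.0746 (SD, n = 3) and 0.171 ± 0.0135 (SD, n = 3). In R1 it was 0.271, 0.343 and 0.277 in +Met and 0.242, 0.184 and 0.143 in −Met+Hcy, again without overlap, with means of 0.297 ± 0.0397 and 0.190 ± 0.0498 (0.213 without replicate 3).

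The ratio of FTL to FTH1 was 0.298, 0.296 and 0.309 in HEK293T +Met and 0.387, 0.413 and 0.415 in −Met+Hcy, so the light chain message was larger against the heavy chain message in every −Met+Hcy library. R1 had lower ratios in +Met, 0.213, 0.234 and 0.218, below all 6 HEK293T libraries. In R1 −Met+Hcy they were 0.264, 0.245 and, in replicate 3, 0.0737. The first 2 lie above the R1 +Met libraries and below those of HEK293T.

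The ratio of IREB2 to ACO1 was 2.61 ± 0.194 in HEK293T +Met and 1.77 ± 0.0298 in −Met+Hcy (SD, n = 3), without overlap. In R1 it was 2.26 ± 0.0860 in +Met and 2.21 ± 0.161 in −Met+Hcy, with overlap. These ratios were chosen with the values known and are given without a test.

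**Figure D4:**
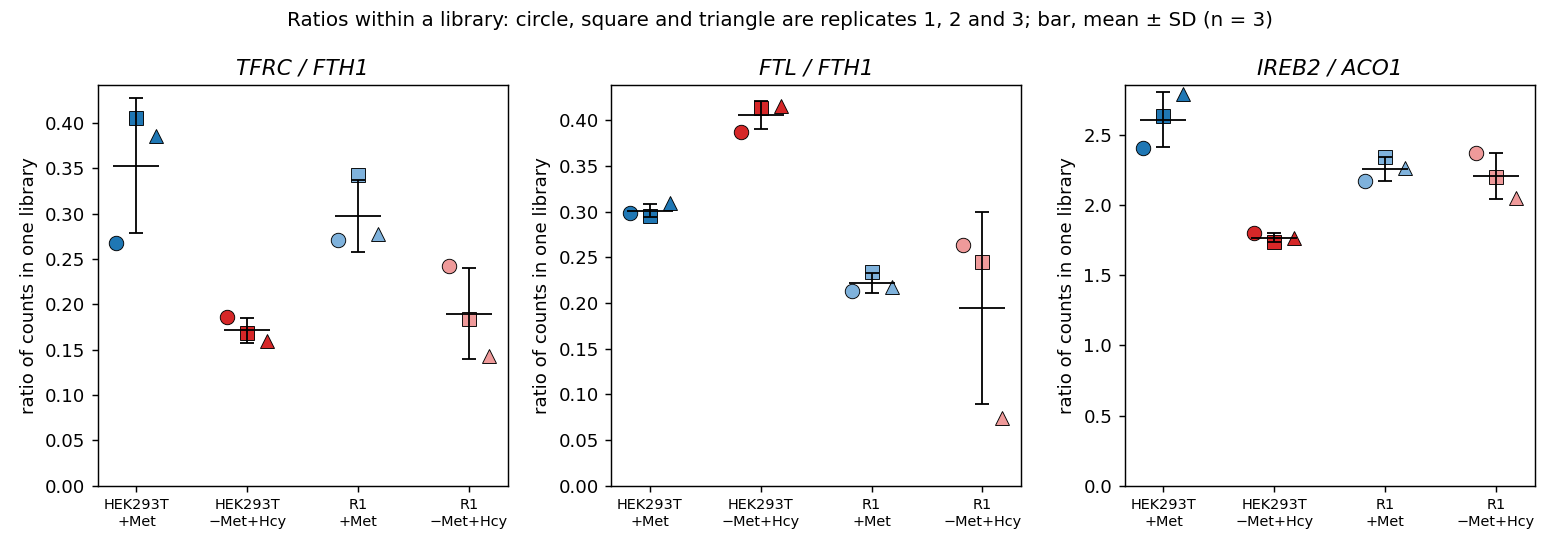
Ratios of counts within each of the 12 libraries (vertical axes, from 0) for TFRC to FTH1, FTL to FTH1 and IREB2 to ACO1, with bars for mean ± SD of 3 libraries. The HEK293T media separate in all panels, R1 media separate in TFRC to FTH1, and the FTL to FTH1 ratio of replicate 3 in R1 −Met+Hcy, 0.0737, lies far below the rest.

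Between the lines in +Met, 0 of 10 members were called by edgeR or by DESeq2 (background 7.66%), and 5 had an unadjusted p under 0.05 (share over all genes not taken). SLC40A1 was higher in R1 by 0.92 ± 0.303 on the log2 scale (SE, edgeR adjusted p = 0.0740), from 6.73 ± 1.74 to 16.1 ± 4.73 CPM (SD, n = 3), without overlap. It was called with the GC trend removed (1.07, adjusted p = 0.0175) and by totals (1.26, adjusted p = 0.0177), and its adjusted p ran from 0.0049 to 0.242 over all alternatives. FTL was lower in R1 by −0.58 ± 0.256 (SE, adjusted p = 0.171), without overlap, and NCOA4 by −0.62 ± 0.278 (SE, adjusted p = 0.180), with overlap by totals. ACO1 was at 0.38 ± 0.163 (SE, adjusted p = 0.162) and TFRC at −0.38 ± 0.169 (SE, adjusted p = 0.173), TFRC with overlapping groups and −0.035 by totals. The directions of FTH1, FBXL5 and STEAP3, −0.14, −0.17 and −0.22 with TMM, turned positive by totals. Without replicate 3 of R1 −Met+Hcy, which enters this comparison only through the shared spread, 4 members had an adjusted p under 0.05 (background 32.7%) and none of them a log2 change over 1. They were FTL (0.00431), SLC40A1 (0.0225), NCOA4 (0.0395) and ACO1 (0.0416).

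By totals, 5 members were higher and 1 lower in R1 +Met without overlap (background 38.1% and 9.15%), and with TMM 3 were higher and 3 lower (background 22.2% and 20.7%).

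In −Met+Hcy, 0 of 10 members were called by edgeR or by DESeq2 (background 9.95%), and 3 had an unadjusted p under 0.05 (share over all genes not taken). FTL was lower in R1 by −0.85 ± 0.257 (SE, edgeR adjusted p = 0.0466), past the adjusted p and short of the fold. The adjusted p alone was passed by 14.0% of genes tested. Without replicate 3 it was −0.56 ± 0.143 (adjusted p = 0.0112), and without replicate 2 of R1 −Met+Hcy it was called at −1.05. Over all alternatives its adjusted p ran from 0.00247 to 0.210. All 3 R1 libraries lay below all 3 HEK293T libraries in this medium, as they did in +Met.

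TFRC was higher in R1 −Met+Hcy by 0.46 ± 0.169 (SE, edgeR adjusted p = 0.0934), from 112 ± 4.33 to 155 ± 15.4 CPM (SD, n = 3), without overlap. DESeq2 gave 0.46 with an adjusted p of 0.0292, and edgeR without replicate 3 gave 0.43 (adjusted p = 0.0621). IREB2 was at 0.38 ± 0.155 (SE, edgeR adjusted p = 0.125), also without overlap, and at 0.38 without replicate 3. For IREB2, DESeq2 gave 0.38 with an adjusted p of 0.0252. FTH1 was at 0.37 ± 0.200 (SE, edgeR adjusted p = 0.241), or 0.12 without replicate 3. Between the lines in −Met+Hcy, 3 members were higher and 2 lower without overlap by totals (background 13.9% and 17.8%), and 2 higher and 1 lower with TMM (background 13.6% and 18.9%). The medium and line comparisons share libraries, so their values for a member are not independent. The HEK293T libraries in both line comparisons are those in view when the list was proposed. The p-values of members between the lines, TFRC above all, are therefore not free of that choice.

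**Figure D5:**
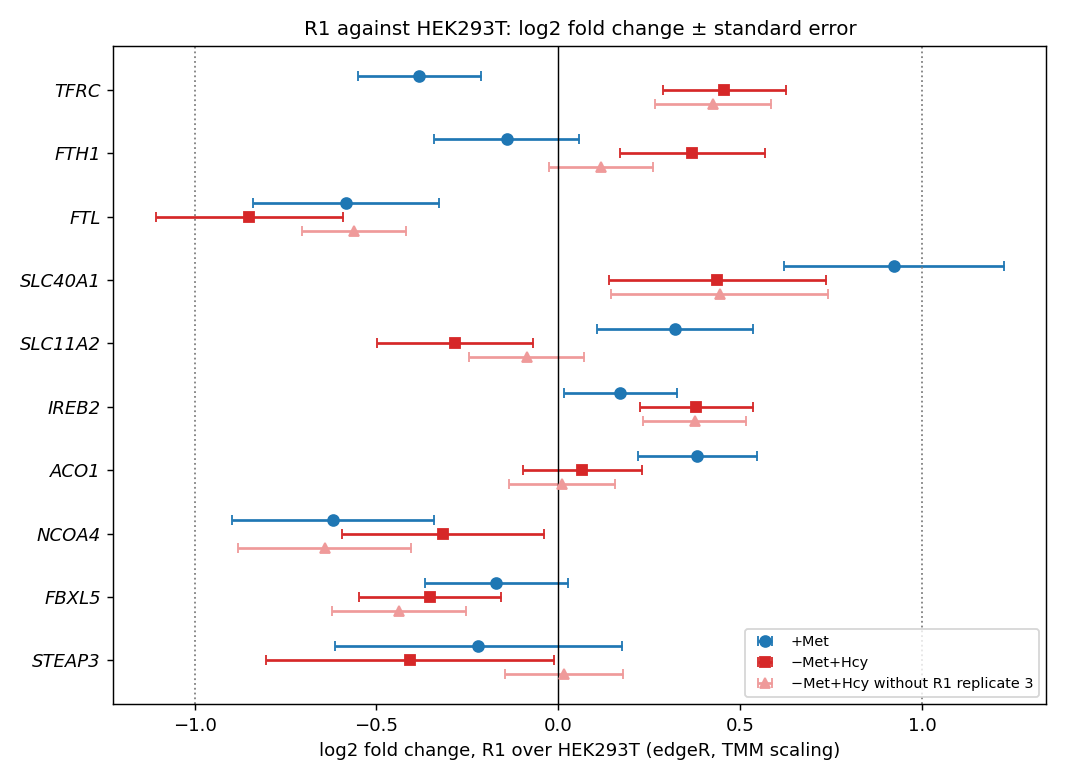
Log2 fold change of R1 over HEK293T (horizontal axis, edgeR with TMM) for each member, with standard errors, in +Met, in −Met+Hcy and in −Met+Hcy without R1 replicate 3. Dotted lines mark a log2 change of 1 in either direction. FTL, NCOA4, FBXL5 and STEAP3 lie below 0 in both media (STEAP3 at 0.017 in −Met+Hcy without R1 replicate 3), SLC40A1, IREB2 and ACO1 above 0 in both, and TFRC, FTH1 and SLC11A2 on opposite sides.

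Around the 10 members, 84 other genes of iron biology were listed, of which 74 were tested: transport, oxidation and regulation of iron, haem synthesis, transport and breakdown, iron-sulfur cluster assembly, and other genes known to carry an iron-responsive element. These lists, too, were chosen with earlier results of these data known, so their calls and p-values are a description. In the HEK293T medium comparison 2 of 74 were called by edgeR (background 4.63%). FLVCR2, a transporter related to FLVCR1, rose from 1.69, 1.44 and 1.53 CPM to 3.58, 4.47 and 4.67 CPM (log2 change 1.15 ± 0.301 SE; adjusted p = 0.0392). It was not called when any 1 of the 6 HEK293T libraries was left out. Of the 74, 16 had an unadjusted p under 0.05. The share over all genes was not taken, so this count cannot tell whether these genes responded more than others. The median log2 change was −0.17, beside 0.034 over all genes tested. In R1, 0 of 74 were called by edgeR or DESeq2. Over all genes tested, edgeR called 0.00583% there, so this count does not set these genes apart. In R1, 0 of 74 had an unadjusted p under 0.05 (share over all genes not taken). The R1 median was −0.13, beside −0.015 over all genes tested.

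Between the lines in +Met, 8 of 74 were called (background 7.66%), 4 in each direction. In transport, CYBRD1, a ferrireductase of the plasma membrane, was higher in R1 (1.37 ± 0.373 SE, edgeR adjusted p = 0.0372). It had only 21, 39 and 26 counts in the HEK293T +Met libraries. In haem handling, HMOX1, which opens the haem ring and frees its iron, was lower, from 30.7, 34.2 and 28.8 CPM in HEK293T to 14.8, 10.2 and 11.4 CPM in R1 (−1.72 ± 0.305 SE; adjusted p = 0.00486). BLVRA, which acts on the biliverdin that HMOX1 makes, was higher, from 21.3, 14.9 and 18.4 CPM to 60.5, 49.4 and 63.9 CPM (1.31 ± 0.203 SE; adjusted p = 0.0023). FLVCR2 was higher by 1.10. In cluster assembly, LYRM4 and BOLA3 were lower, at −1.18 and −1.37. By totals neither was called, at −0.83 and −1.02 (edgeR adjusted p = 0.0359 and 0.0564). LYRM4, a partner of the cysteine desulfurase, stood at 44.6, 42.1 and 52.6 CPM in HEK293T and at 23.0, 33.7 and 21.6 CPM in R1. EPAS1, a hypoxia-inducible factor whose message carries an iron-responsive element, was higher by 2.02 ± 0.365 (SE, adjusted p = 0.00528), from 6.20, 6.99 and 4.53 CPM to 34.8, 19.2 and 38.0 CPM. HMOX1, BLVRA and EPAS1 were called in all 12 fits that left out 1 library, and CYBRD1 in 6 of them. Of the 6 fits that left out a library of the groups compared, CYBRD1 and FLVCR2 passed in 1 each. LYRM4 and BOLA3 passed in 2 each of those 6. By list, transport had 1 higher of 23 tested, haem handling 2 higher and 1 lower of 18, cluster assembly 3 lower of 28, and the other genes with an element 1 higher of 5. The median of the 74 was −0.34, beside 0.019 over all genes.

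In −Met+Hcy, 10 of 74 were called between the lines (background 9.95%), 4 higher and 6 lower in R1. CYBRD1 (2.29), BLVRA (1.77) and EPAS1 (1.37) were higher and HMOX1 (−1.50) lower, each in the direction it had in +Met. CYBRD1 was low, with 15, 30 and 10 counts in HEK293T −Met+Hcy and 91, 84 and 97 in R1 −Met+Hcy. FDX2, a ferredoxin of cluster assembly, was lower by −1.45 ± 0.307 (SE, edgeR adjusted p = 0.00896). MON1A, a vesicle trafficking protein linked to ferroportin, was lower by −1.38, with 71.0, 77.2 and 68.3 CPM in HEK293T −Met+Hcy and 40.1, 37.4 and 10.1 CPM in R1. FLVCR1, a transporter described as a haem exporter, and GLRX5, a cluster carrier, were lower by −1.03 and −1.08, and NFU1, a scaffold for clusters, was higher by 1.42. Without replicate 3 of R1 −Met+Hcy, CYBRD1 was at 2.27, BLVRA at 1.75, EPAS1 at 1.66, HMOX1 at −1.18, FDX2 at −1.15 and MON1A at −1.001, and each was still called. FLVCR1, GLRX5 and NFU1 were not called without it, at −0.83, −0.82 and 0.69, and NFU1 in that library (182 CPM) was well above the 81.9 and 65.0 CPM of the others. CYBRD1, HMOX1, BLVRA and FDX2 were called in all 12 fits that left out 1 library. Of the 6 fits that left out a library of the groups compared, MON1A and FLVCR1 passed in 4 each. EPAS1 and GLRX5 passed in 3 each of those 6, and NFU1 in 2. By list, transport had 1 higher and 1 lower of 23, haem handling 1 higher and 2 lower of 18, cluster assembly 1 higher and 3 lower of 28, and the other genes with an element 1 higher of 5. The median of the 74 was −0.20, beside −0.0080 over all genes.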

How the data were processed

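Reads of 12 RNA-seq libraries were quantified by the authors with kallisto 0.48.0 on GRCh38. The deposited file holds estimated counts, which the authors summed per Ensembl gene and made whole. Strandedness is not given in the sources used here. The 10 members and all gene lists were chosen with earlier results of these data known. Genes with a summed count under 10 were excluded, which left 17162 of 23500. Among the members, library totals of 12664158 to 18771349 limit SLC40A1 most, with 77 counts in its lowest library. Where nothing says that libraries came from separate cultures, p-values measure only the spread between these libraries, which may be technical.

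The main test was edgeR 4.0.16 in R 4.3.3 (quasi-likelihood, TMM, all 12 libraries, 8 residual degrees of freedom, two-sided), with Benjamini-Hochberg adjustment over all genes tested. The groups came from the labels. Alternatives were DESeq2 1.42.0, which the study's methods name, RLE scaling, filterByExpr, no filter, robust estimation, libraries of the comparison only, a replicate block, removal of a GC trend (loess span 0.3, GC known for 92.4% of genes tested), the adjusted p alone, longest transcripts, Watson-Crick pairs only, at least 4 of 5 pairs, and each library left out. The script was tested on simulated data. Named genes were all members, every wider gene called, and the 5 genes with the highest Pearson r with TFRC. Some genes that this rule or the marker lists name are counted but not reported here by name. UTRs, lengths and coordinates came from GENCODE 44.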

Additional observations from a re-analysis of the deposited data

How the results depend on the processing

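Of 1090 alternative values of single members, 1053 kept their direction and side of the threshold (in the HEK293T medium comparison, moved by less than the spread between replicates), 24 reversed in the comparisons with a test, 9 moved, one of them FTH1 with a change of sign, and 4 became stronger. Scaling by totals and removing the GC trend together with replicate 3 of R1 −Met+Hcy were chosen after seeing the data. The cause was not tested for any change below. Called members numbered 0 by totals in the HEK293T medium comparison (1 with TMM). There was 1, SLC40A1, between the lines in +Met with the GC trend removed, by totals, and with the GC trend and replicate 3 removed, and 1, FTL, in −Met+Hcy on the adjusted p alone. Leaving out 1 library gave 0 to 1 there (1 without R1 −Met+Hcy replicate 2). Called wider genes in the HEK293T medium comparison numbered 6 with DESeq2, 1 without a filter, 7 on the libraries of the comparison only, 0 with the replicate block, 5 with the GC trend removed, 6 with replicate 3 of R1 −Met+Hcy left out as well, and 0 to 7 when 1 library was left out (7 without R1 −Met+Hcy replicate 3, 0 without any 1 HEK293T library, and 1 without R1 +Met replicate 1 or 3 or R1 −Met+Hcy replicate 1). The difference of responses gave 0 to 1 (1 without R1 −Met+Hcy replicate 3). Between the lines in +Met the number was 5 with the replicate block and 4 to 12 on leaving out 1 library, with 4 without replicate 1 or 3 of either group. In −Met+Hcy it was 1 on the libraries of the comparison only, 6 with the GC trend and replicate 3 removed, and 5 to 13 on leaving out 1 library, with 5 without HEK293T −Met+Hcy replicate 2 or 3. The difference needs all 12 libraries and has no value on fewer groups. The share of all genes called was taken for the main fit only. Shifts in the counts of this paragraph therefore cannot be told from a shift in calls over all genes.

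Values of members that changed sign were as follows on the log2 scale. None of them was called. With the GC trend removed, the R1 medium change was 0.20 for FTL, −0.15 for SLC40A1 and −0.15 for FBXL5, and the difference of responses was −0.020 for IREB2. With replicate 3 left out as well, the R1 medium change was 0.24 for FTL and −0.026 for FBXL5, the difference was 0.21 for STEAP3, and the −Met+Hcy line effect was 0.046 for SLC11A2. By totals, the HEK293T medium change was 0.089 for FTH1, the difference was −0.12 for IREB2 and −0.051 for NCOA4, and the +Met line effect was 0.21 for FTH1, 0.18 for FBXL5 and 0.14 for STEAP3. On leaving out 1 library the R1 medium change ran from −0.23 to 0.25 for FTL, −0.18 to 0.28 for SLC40A1 and −0.017 to 0.28 for FBXL5. The difference ran from −0.46 to 0.024 for FTL, −0.023 to 0.56 for NCOA4, −0.28 to 0.017 for FBXL5 and −0.57 to 0.24 for STEAP3, and the −Met+Hcy line effect of STEAP3 from −0.79 to 0.017.

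Replicate numbers did not mark shared handling in the labels. Same-numbered libraries had correlated deviations of 0.003, −0.067 and 0.484 between the HEK293T media, and between −0.504 and 0.215 in the other comparisons, and at most 2 of 6 libraries correlated best with their own number, so the numbers were not taken as pairs. With the replicate block, 1 member was called in the HEK293T medium comparison and 0 in the other comparisons.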

Other observations

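Over the 12 libraries, the genes whose log2 CPM followed that of TFRC most closely among 11641 genes were CCT2 (Pearson r = 0.97), ELOVL5 (0.96), PSMB7 (0.95), M6PR (0.95) and HSPD1 (0.94). CCT2 and HSPD1 encode chaperonin subunits, PSMB7 a proteasome subunit, ELOVL5 a fatty acid elongase and M6PR a receptor for lysosomal enzymes. Without replicate 3 of R1 −Met+Hcy, over 11 libraries, the first 5 were HSPD1 (0.98), CCT2 (0.97), PTGES3 (0.97), TRMT12 (0.97) and SLC36A4 (0.97), so CCT2 and HSPD1 were in both. Of the other iron genes, IREB2 had r = 0.68 with TFRC, and the remaining 8 lay between −0.32 and 0.31. Without that library IREB2 and STEAP3 had r = 0.69, FTH1 had 0.45, and the remaining 6 lay between −0.43 and −0.19. The points share libraries, groups and scaling, so these values are a description. They are given without a test.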
